A study of Mus musculus with 12 samples.

Results

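The array measured 59 Rab GTPase genes, out of 18193 mouse genes that had a probe set assigned to a single gene. They were chosen by symbol alone, as Rab followed by a number with at most a letter and a further digit, so regulators and effectors of Rabs were not among them. Each gene was represented by its brightest probe set over the 12 arrays, taken from 132 Rab probe sets among 34945 probe sets with a single gene. A total of 50 Rab genes exceeded the filter level, a normalised signal of 74.6, in at least 2 arrays and were tested among 11696 genes. The other 9 (Rab26, Rab30, Rab32, Rab34, Rab3b, Rab3c, Rab40b, Rab4a and Rab9b) were under that level in all 12 arrays, the highest single value being 66.4 for Rab34, and they have no test.

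Rab proteins are small GTPases that mark the membranes of a cell and steer vesicles between them. A Rab is held inactive in the cytosol by a GDP dissociation inhibitor, is switched on at its membrane by an exchange factor, recruits effectors such as tethers and motor adaptors while it carries GTP, and is switched off by a GTPase activating protein. Different Rabs serve early endosomes, recycling endosomes, late endosomes and lysosomes, secretory vesicles, and the endoplasmic reticulum and Golgi, and macrophages are known for their use in phagosome maturation and lysosomal degradation.

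The study followed the conversion of a mouse B cell line into macrophages. The line, C10, carries an inducible C/EBPa, a transcription factor of myeloid cells, and every C10 sample held that construct, the controls included. Vehicle C10 received ethanol, and the other C10 groups received beta-estradiol for 3, 12, 24 or 48 h. HAFTL, a line from fetal liver transformed with the Ha-ras oncogene, also received beta-estradiol, so it differs from vehicle C10 in both line and agent. Each of the 6 groups had 2 arrays. The labels give no time for vehicle C10 or HAFTL, and nothing says that the duplicates were separate cultures, and a p-value here covers only how far the 2 samples of a group lie apart.

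The labelled cell types were checked against marker genes. In both vehicle C10 arrays 12 of 13 B lineage markers exceeded the filter level, and in both 48 h arrays 9 did. The summed signal of the 13 went from 125400 to 128300 in vehicle C10 down to 19370 to 21240 at 48 h. All 8 macrophage markers exceeded the level in both 48 h arrays, and 5 of them did in both vehicle arrays. The summed signal of the 8 was 1290 to 1359 in vehicle C10 and 116700 to 116800 at 48 h. The 7 granulocyte markers summed to 219.4 to 222.4 in vehicle C10 and 8688 to 10060 at 48 h, 3 of them exceeding the level in both 48 h arrays. The T and NK cell markers Cd3d, Cd3g and Ncr1, the erythroid marker Alas2 and the stromal markers Col1a1 and Col3a1 never exceeded the level. The other 2 found on each of these lists did in some array: Cd8a and Cd3e, Epor and Klf1, and Pdgfrb and Col1a2. Pdgfrb exceeded it in every array, at 195 and 181.5 in vehicle C10. The 5′ to 3′ ratio of the Actb control probe sets in the deposited signals was 0.61 ± 0.0397 (SD, n = 2) in vehicle C10 and between 0.765 and 0.825 at the 4 estradiol times. These values moved with treatment time, and their part in the Rab results was not tested.

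Upstream sequences are shown first for a few Rabs that the results turn on. RefSeq windows for GRCm38.p6 were found for 48 of the 59 genes, 60 windows in all, and the 250 bases before each start were searched on both strands for 4 motifs. The C/EBP letters TTGCNNAA occurred in 4 of the 60 Rab windows (6.67%), those of Rab1b, Rab29, Rab40b and Rab43, and in 9.56% of all 32851 windows. The PU.1 letters GAGGAA occurred in 13.3% of Rab windows and 23.3% of all windows. The E-box letters CACGTG, which are bound by factors of lysosomal genes among others, occurred in 8.33% of Rab windows (Rab20, Rab21, Rab23, Rab27a and Rab5a) and 6.02% of all windows. An interferon-type element, GAAA followed by 2 free letters and GAAA again, occurred in 1 Rab window, that of Rab19, and in 2.98% of all windows. No motif shared letters with another in the 4 windows printed here. Median GC content was 60.2% in the Rab windows and 52.4% in all windows. A match is a description of these letters and not a binding site.

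The windows of Rab29 and Rab1b, which are described below as higher at 24 h and 48 h, each hold a C/EBP match, that of Rab20 an E-box, and that of 1 of the 4 Rab43 starts a C/EBP and a PU.1 match. They were picked after the matches and values had been seen. Each is written 5′ to 3′ on the gene's strand, up to the base before the start, with the matches in capitals. The Rab29 window is chr1:131867027-131867276 on the plus strand, with its match starting 174 bases before the start. The minus-strand windows are chr19:5106997-5107246 for Rab1b (match at 91 bases), chr8:11478641-11478890 for Rab20 (46 bases) and chr6:87809758-87810007 for Rab43 (70 bases for C/EBP and 12 for PU.1).
Rab29: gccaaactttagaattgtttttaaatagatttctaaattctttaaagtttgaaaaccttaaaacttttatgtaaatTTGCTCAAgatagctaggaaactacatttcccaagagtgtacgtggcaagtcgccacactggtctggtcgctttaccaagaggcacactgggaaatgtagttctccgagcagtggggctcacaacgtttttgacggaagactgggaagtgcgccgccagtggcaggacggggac
Rab1b: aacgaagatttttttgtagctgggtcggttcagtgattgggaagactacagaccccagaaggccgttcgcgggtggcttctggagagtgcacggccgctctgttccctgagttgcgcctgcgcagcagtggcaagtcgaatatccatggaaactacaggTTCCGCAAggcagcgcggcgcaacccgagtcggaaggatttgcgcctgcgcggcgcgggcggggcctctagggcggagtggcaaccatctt
Rab20: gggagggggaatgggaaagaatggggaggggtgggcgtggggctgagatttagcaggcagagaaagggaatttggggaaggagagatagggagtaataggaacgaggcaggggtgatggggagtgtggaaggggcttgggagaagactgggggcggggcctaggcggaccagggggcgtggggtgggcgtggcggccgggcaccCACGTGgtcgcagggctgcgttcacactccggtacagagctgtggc
Rab43: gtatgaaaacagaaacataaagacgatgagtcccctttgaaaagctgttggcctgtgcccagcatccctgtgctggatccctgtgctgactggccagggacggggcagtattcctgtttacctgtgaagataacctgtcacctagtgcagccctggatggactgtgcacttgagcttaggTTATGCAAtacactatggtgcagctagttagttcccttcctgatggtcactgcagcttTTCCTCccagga

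Under quantile normalisation the Rab calls were mostly lower at 3 h and mostly higher from 12 h on, whereas with arrays scaled to the poly-A spike-in controls higher calls were the majority at all 4 times. A gene was called where the adjusted p of limma's moderated test, over all 11696 genes, was below 0.05. At 3 h 9 of the 50 were higher and 14 lower than in vehicle C10, against 20.9% and 27.3% of all genes tested. At 12 h 17 were higher and 9 lower, against 22.3% and 28.7% of all genes. At 24 h 22 were higher and 10 lower (24.2% and 33.3% of all genes), and at 48 h 26 were higher and 9 lower (24.2% and 38.2%). The 4 comparisons share the vehicle arrays. Because the RNA is from bulk cultures, fewer cells of a type and less RNA per cell cannot be told apart.

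At 3, 12, 24 and 48 h the median log2 change over the 50 Rab genes was -0.115, 0.20, 0.36 and 0.58. Over all genes tested the medians were -0.0638, -0.0803, -0.13 and -0.19. The direction at 3 h depended on scaling: with spike-in scaling in place of quantile normalisation, the median of all genes rose to 0.60, 0.62, 0.17 and 0.41 at the 4 times and that of the Rab genes to 0.58, 0.94, 0.64 and 1.2. Relative to all genes, the Rab median at 48 h lay 0.77 higher under quantile normalisation and 0.79 higher under spike-in scaling. At 3 h it lay 0.0511 and 0.0227 lower. Of the Rab calls at the 4 times 39.1%, 65.4%, 68.8% and 74.3% were higher, and 71.4%, 85.7%, 91.7% and 96.2% under spike-in scaling. Of all calls 43.4%, 43.7%, 42.1% and 38.8% were higher, and 82.9%, 85.3%, 63.9% and 71.0% under spike-in scaling. The lower Rab calls at these times that remained under spike-in scaling were those of Rab25 at all 4 times, Rab3a at 3 h and Rab33a at 12 h, so every other lower Rab call against vehicle C10 was lost there. Each higher call lost there at these times had a larger change than under quantile normalisation. Centring on the array median moved the Rab share at 3 h to 52.0%.

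**Figure D1:**
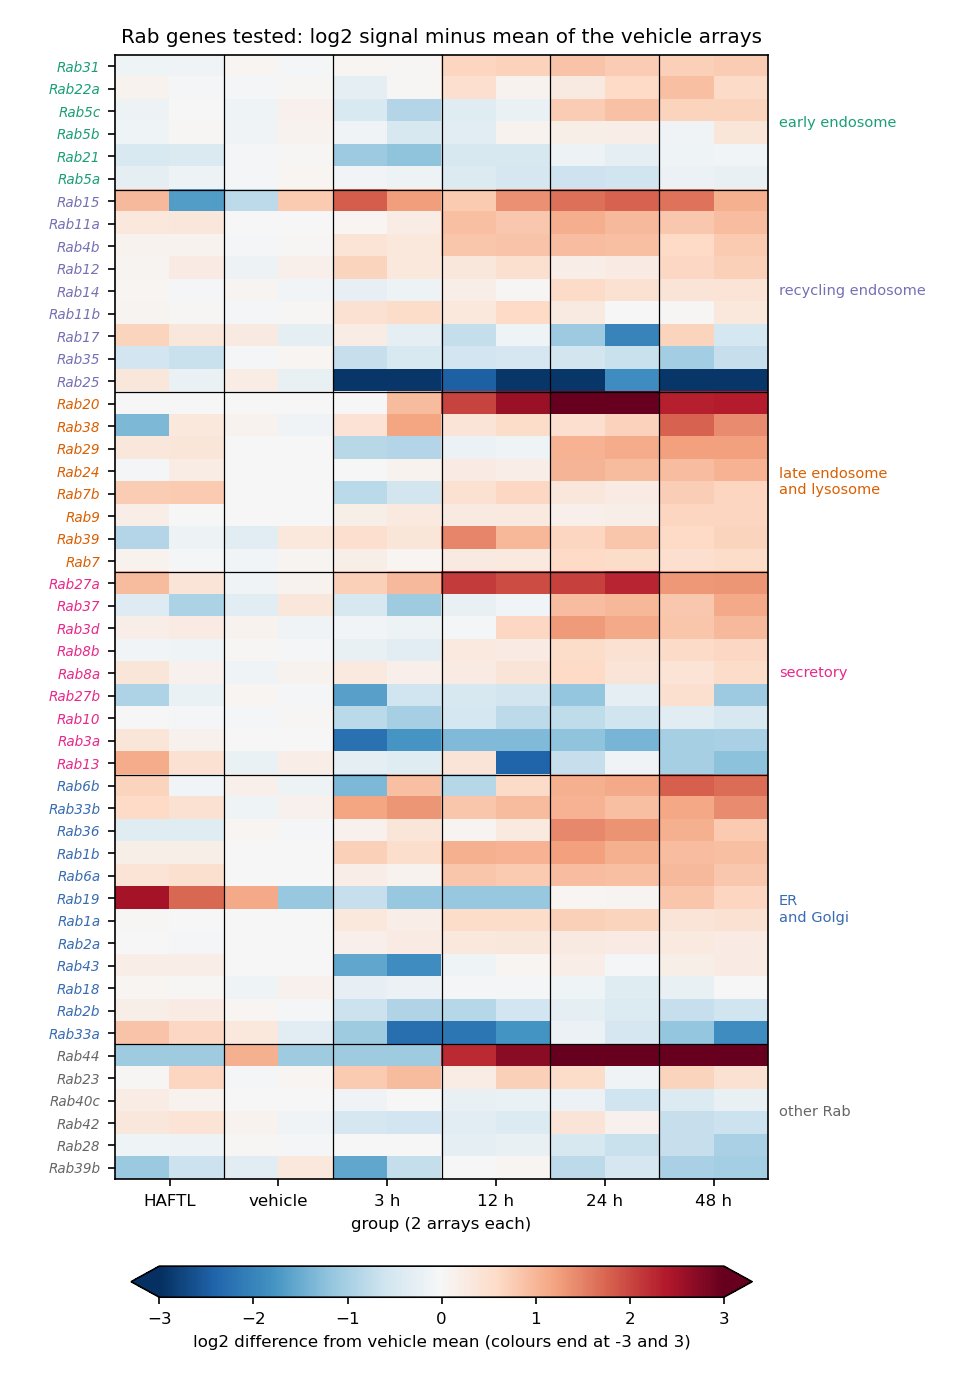
Heat map of the 50 Rab genes tested, by list, with 1 column per array and colour for the log2 signal minus the mean of the 2 vehicle C10 arrays. The colours end at -3 and 3. Rab44 and Rab20 are red from 12 h on, Rab25 is blue at all 4 times, and Rab3a, Rab43 and Rab21 reach their lowest values at 3 h.

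Changes of at least 2-fold among the calls were fewer. By the fitted change of the floored signals they numbered 1 higher and 6 lower at 3 h (7.07% and 11.4% of all genes), 5 and 3 at 12 h (8.21% and 11.6%), 8 and 3 at 24 h (11.5% and 15.2%), and 6 and 2 at 48 h (12.8% and 19.9%). They include Rab17, Rab20, Rab25 and Rab33a, whose bounds given below are smaller than 2-fold at some or all times. Without genes under the filter level in both vehicle arrays, the higher ones numbered 3 at 12 h, 6 at 24 h and 4 at 48 h. The arrays of the groups did not overlap for 37 of 50 Rab genes at 3 h (74.4% of all genes) and for 44 at 48 h (80.3%). Over the C10 groups the F test called 39 of 50, against 76.0% of all genes. By the brightest probe set, the genes higher at all 4 times were Rab1a, Rab1b, Rab27a, Rab2a, Rab33b and Rab4b. Those lower at all 4 were Rab10, Rab25, Rab2b, Rab35 and Rab3a. Dimmer probe sets of Rab1a (-0.208) and Rab10 (-0.119) at 3 h and of Rab2a (-0.0277) at 48 h were not called. At 24 h no dimmer Rab2b probe set was called, with changes from -0.145 to 0.0874. Another probe set of each of Rab1a, Rab2a and Rab3a was called in the direction of the brightest at all 4 times. By the brightest probe set no call against vehicle C10 was made at any time for Rab13, Rab15, Rab18, Rab19, Rab27b, Rab5b or Rab6b. Of the dimmer Rab6b probe sets, 1 was called lower at 3 h (-2.64) and 12 h (-2.03). Another was called higher at 24 h (1.71) and 48 h (1.745). Rab20, Rab42, Rab44 and Rab6b were under the filter level in both vehicle arrays, so they were tested only through other arrays, and without them 24 of 46 were higher and 8 lower at 48 h. The 9 higher calls at 3 h fell to 3 without the first vehicle array, and to 5 without the second vehicle array or the second 3 h array. The 10 lower calls at 24 h numbered 6 without the first vehicle array or the second 24 h array.

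Early endosome Rabs direct the first sorting of endocytosed cargo. Of 6 tested, the higher calls at 3, 12, 24 and 48 h numbered 0, 1, 2 and 3 and the lower ones 2, 2, 2 and 0, the higher ones at 48 h being Rab5c, Rab31 and Rab22a. Over all genes tested 20.9%, 22.3%, 24.2% and 24.2% were higher at these times and 27.3%, 28.7%, 33.3% and 38.2% lower. Rab5c is 1 of 3 isoforms of Rab5, the Rab that organises fusion of early endosomes. Its signals were 725 and 853 in vehicle C10, 572 and 426 after 3 h of estradiol, 615 and 685 after 12 h, 1342 and 1446 after 24 h, 1243 and 1247 after 48 h, and 709 and 780.5 in HAFTL. The 3 h arrays lay under both vehicle arrays (log2 change -0.67, SE 0.15, adjusted p = 0.00732), and those at 24 h (log2 change 0.82, SE 0.15, adjusted p = 0.00202) and 48 h (log2 change 0.66, SE 0.15, adjusted p = 0.00547) lay above them. Under spike-in scaling the Rab5c changes at 3, 24 and 48 h were -0.0713 (adjusted p = 0.92), 1.07 (0.103) and 1.2 (0.0467). Rab5a, the other isoform with called changes, was lower at 12 h (-0.45), where Rab5c was also under its vehicle arrays without a call (-0.28). At 24 h Rab5a was lower (log2 change -0.60, SE 0.08, adjusted p = 0.000357) while Rab5c was higher. Under spike-in scaling the Rab5a changes at these times were 0.334 and -0.25, neither called. Rab5b had no call, with log2 changes from -0.29 to 0.19.

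Rab21, known for the traffic of integrins through early endosomes, gave signals of 3146 and 3299 in vehicle C10, 1505 and 1403 after 3 h of estradiol, 2301 and 2315 after 12 h, 2918 and 2637 after 24 h, 2933 and 3044 after 48 h, and 2351 and 2389 in HAFTL. Both 3 h arrays were less than those of every other group, and the later arrays climbed back towards the vehicle range without overlapping it. The fall was 2.22-fold at 3 h (log2 change -1.15, SE 0.077, adjusted p = 1.77e-05; another probe set gave -0.89), and the log2 changes were -0.48 at 12 h, -0.22 at 24 h and -0.11 at 48 h, the last with no call. Scaling to the spike-ins left the 3 h change at -0.42 with an adjusted p of 0.516, and turned the 12 h and 24 h changes to 0.257 and 0.118. Rab31, which acts between the trans-Golgi and endosomes, stood at 2342 and 2152 in vehicle C10, 2342 and 2310.2 after 3 h, 3525 and 3611 after 12 h, 4084 and 3819 after 24 h and 3710.5 and 3805 after 48 h. All 6 later arrays exceeded the vehicle arrays, by 1.67-fold at 48 h (log2 change 0.74, SE 0.071, adjusted p = 4.73e-05). Rab22a, another early endosome Rab, was called at 48 h (log2 change 0.74, SE 0.19, adjusted p = 0.0113).

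Recycling endosome Rabs return receptors and membrane to the cell surface. Of 9 tested, 3, 3, 3 and 4 were higher over the 4 times and 2, 2, 3 and 2 lower. At 48 h these were 44.4% and 22.2%, against 24.2% and 38.2% of all genes. Rab11a, the main Rab of the slow recycling route, gave signals of 3120.1 and 3100.1 in vehicle C10, 3245 and 3614 after 3 h of estradiol, 5778 and 5424 after 12 h, 6574 and 6140.0 after 24 h, 5434 and 5929 after 48 h, and 3898 and 3906 in HAFTL. The 12 h, 24 h and 48 h arrays all lay above the 3 h and vehicle arrays, and the rise was 2.04-fold at 24 h (log2 change 1.03, SE 0.084, adjusted p = 2.58e-05) and 1.82-fold at 48 h (log2 change 0.87, SE 0.084, adjusted p = 5.07e-05). Rab4b, of the fast recycling route, stood at 1026 and 1084 in vehicle C10, 2010.2 and 1957 at 24 h and 1594 and 1823 at 48 h, without overlap (log2 change 0.69, SE 0.082, adjusted p = 0.000164). Rab12 and Rab14, both known in traffic between recycling endosomes and other compartments, were higher at 48 h, by log2 0.67 and 0.40, although 1 of 6 other Rab14 probe sets was called lower and 3 were called higher.

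Rab25, a relative of Rab11a found mostly in epithelia, went the opposite way. Its signals were 142 and 104 in vehicle C10, 16 and 16 after 3 h of estradiol, 22.4 and 16 after 12 h, 16 and 33.5 after 24 h, 16 and 16 after 48 h, and 154 and 106 in HAFTL. It was over the filter level in the vehicle and HAFTL arrays and under it in all 8 estradiol C10 arrays. It was thus at least 1.63-fold lower at each time. The test of the floored signals gave adjusted p from 0.000192 at 48 h to 0.000708 at 24 h. Rab35, of fast recycling and cell division, stood at 3196 and 3491 in vehicle C10 and at 1622 and 2082 at 48 h (log2 change -0.86, SE 0.14, adjusted p = 0.000837). Its HAFTL arrays, at 2248 and 2094, also lay under the vehicle arrays, and against HAFTL the changes at 3, 12, 24 and 48 h were 0.0558, 0.0908, 0.0107 and -0.24, the last with an adjusted p of 0.166. Spike-in scaling turned the Rab35 changes at 3 h and 12 h to 0.208 and 0.205 and left -0.27 at 48 h (adjusted p = 0.707). Rab17, an epithelial Rab of transcytosis, was close to the filter level, with signals of 114 and 78 in vehicle C10, 111 and 76.5 after 3 h of estradiol, 57.9 and 86 after 12 h, 44.6 and 23.4 after 24 h, 149 and 65.9 after 48 h, and 149.9 and 119.5 in HAFTL. Only the 24 h arrays were both under the vehicle arrays, at least 1.26-fold (adjusted p = 0.0231), and this call was lost without the first vehicle array (adjusted p = 0.119) or the second 24 h array (adjusted p = 0.138).

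Late endosome and lysosome Rabs control the last steps of degradation, including phagosome maturation. Of 8 tested, 0, 5, 5 and 7 were higher over the 4 times and 2, 0, 0 and 0 lower. The shares higher and lower were 0% and 25% at 3 h, against 20.9% and 27.3% of all genes. At 48 h they were 87.5% and 0%, against 24.2% and 38.2%. The higher counts at 12, 24 and 48 h, and the medians that follow, include Rab20. It was at the floor of 16 in both vehicle arrays, so it could be called in no other direction. Over the 4 times the median log2 change of these 8 was 0.18, 0.37, 0.67 and 0.84, and 1.40 at the last under spike-in scaling. Rab7, which drives fusion of late endosomes with lysosomes, stood at 5399 and 6062 in vehicle C10, 8706 and 8406 at 24 h and 8177 and 8325 at 48 h. The rise was 1.44-fold at 48 h (log2 change 0.53, SE 0.087, adjusted p = 0.00103), with no overlap of the arrays. Rab9, of transport from late endosomes to the Golgi, was 1.56-fold higher at 48 h (log2 change 0.64, SE 0.087, adjusted p = 0.000352), and Rab24, linked to autophagy, 1.98-fold (log2 change 0.99, SE 0.097, adjusted p = 5.42e-05). Rab38, Rab39 and Rab9 had no call at 24 h, and Rab39 was the 1 without a call at 48 h.

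Rab29, which recruits the kinase LRRK2 to lysosome and Golgi membranes, had signals of 1058 and 1059 in vehicle C10, 596 and 577 after 3 h of estradiol, 932 and 971 after 12 h, 2177 and 2284 after 24 h, 2468 and 2474 after 48 h, and 1332 and 1367 in HAFTL. The duplicates were close, the pooled SD of its log2 signal being 0.031, and the groups were ordered without overlap from 3 h through 12 h and vehicle C10 to 24 h and 48 h. It was 1.81-fold lower at 3 h (log2 change -0.85, SE 0.063, adjusted p = 2.85e-05) and 2.33-fold higher at 48 h (log2 change 1.22, SE 0.063, adjusted p = 1.61e-06). Spike-in scaling left -0.23 at 3 h (adjusted p = 0.73) and 1.77 at 48 h (adjusted p = 0.00317). Rab7b, known in mouse macrophages for the traffic of Toll-like receptors, also crossed the vehicle range, with signals of 698 and 718 in vehicle C10, 401 and 487 after 3 h of estradiol, 972 and 1088 after 12 h, 897 and 836 after 24 h, 1185 and 1109 after 48 h, and 1198 and 1223 in HAFTL. It was lower at 3 h (-0.68) and higher at 12 h (0.54), 24 h (0.29) and 48 h (log2 change 0.69, SE 0.11, adjusted p = 0.000728). Under spike-in scaling its changes were -0.0832 at 3 h (adjusted p = 0.907) and 1.23 at 48 h (adjusted p = 0.0406). HAFTL arrays lay above the 48 h arrays for Rab7b, so against HAFTL the changes at 12 h, 24 h and 48 h were -0.235, -0.482 and -0.0786.

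Rab20, a Rab of phagosome acidification and maturation in macrophages, was at the floor of 16 in both vehicle and both HAFTL arrays. It read 16 and 30.9 after 3 h, 65.2 and 95.9 after 12 h, 190.3 and 170.4 after 24 h and 80.8 and 81.6 after 48 h. Both 24 h arrays were well above the filter level and both 48 h arrays just above it, while 1 of the 12 h arrays was under it. Against the filter level it was at least 2.41-fold higher at 24 h and at least 1.09-fold at 48 h. The test of the floored signals against vehicle C10 gave adjusted p = 2.98e-05 and 0.000217, and it does not test these bounds. Between 24 h and 48 h it fell (log2 change -1.15, SE 0.29, adjusted p = 0.0239).

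Rab38, known from melanosome formation in mouse, had signals of 83.2 and 71.8 in vehicle C10, 104 and 176 after 3 h of estradiol, 102 and 113 after 12 h, 109.9 and 125 after 24 h, 262 and 206 after 48 h, and 30.3 and 96.6 in HAFTL. The 48 h arrays lay above both vehicle arrays, 1 of which was under the filter level, and the call at 48 h (log2 change 1.59, SE 0.49, adjusted p = 0.0233) was lost when any 1 of these 4 arrays was left out, with adjusted p from 0.0521 (second 48 h array) to 0.104 (first 48 h array); it was 0.0628 and 0.0948 without the first and second vehicle arrays. The other Rab38 probe set was under the filter level in every array and was not tested. Averaging the Rab38 probe sets gave a log2 change of 0.96 at 48 h with no call (adjusted p = 0.0734). Rab39, which acts on phagosomes and lysosomes of macrophages, had signals of 119 and 188 in vehicle C10, 214 and 191 after 3 h of estradiol, 414 and 296 after 12 h, 235 and 267 after 24 h, 226 and 239.5 after 48 h, and 81.3 and 135 in HAFTL. The 12 h arrays were the highest (log2 change 1.23, SE 0.29, adjusted p = 0.00955), and that call was lost without the first vehicle array (adjusted p = 0.0616) or the first 12 h array (adjusted p = 0.0626).

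Secretory Rabs bring granules and vesicles to the plasma membrane. Of 9 tested, 1, 2, 5 and 5 were higher over the 4 times and 3, 2, 2 and 2 lower. At 48 h these were 55.6% and 22.2%, against 24.2% and 38.2% of all genes. Rab27a docks lysosome-related granules at the plasma membrane of blood cells. Its signals were 183 and 209 in vehicle C10, 319.6 and 381 after 3 h of estradiol, 839.8 and 761 after 12 h, 808 and 951 after 24 h, 483 and 492 after 48 h, and 379.9 and 256 in HAFTL. Every estradiol C10 array exceeded both vehicle arrays, and the 12 h and 24 h arrays were the highest. The rise was 1.79-fold at 3 h, 4.09-fold by 12 h, 4.49-fold at 24 h (log2 change 2.17, SE 0.19, adjusted p = 3.94e-05) and 2.5-fold at 48 h (log2 change 1.32, SE 0.19, adjusted p = 0.000497). From 24 h to 48 h it fell by 0.85 on the log2 scale (adjusted p = 0.015). The HAFTL arrays stood at 379.9 and 256, and the difference from vehicle C10 missed the threshold (adjusted p = 0.0529). Its other probe sets were under the filter and were not tested.

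Rab3a, the Rab of synaptic vesicles and regulated exocytosis, had signals of 2278 and 2216 in vehicle C10, 479.6 and 656 after 3 h of estradiol, 893 and 903 after 12 h, 974 and 856 after 24 h, 1119 and 1142 after 48 h, and 2873 and 2476 in HAFTL. All 8 estradiol arrays lay under the vehicle arrays, those at 3 h lowest. It fell 4-fold at 3 h (log2 change -2.002, SE 0.15, adjusted p = 2.95e-05) and was still 1.99-fold lower at 48 h (log2 change -0.99, SE 0.15, adjusted p = 0.000629). Under spike-in scaling the call at 3 h remained (-1.35, adjusted p = 0.0371), and the changes at 12, 24 and 48 h were -0.62, -1.01 and -0.42 (adjusted p = 0.534 at 48 h) with no call. Rab3d, a granule Rab of exocrine and blood cells, went up instead, with signals of 228 and 198 in vehicle C10, 200.5 and 192 after 3 h of estradiol, 209 and 327 after 12 h, 512 and 471 after 24 h, 378 and 419 after 48 h, and 243 and 254 in HAFTL. Its 24 h arrays (log2 change 1.21, SE 0.19, adjusted p = 0.00097) and 48 h arrays (log2 change 0.91, SE 0.19, adjusted p = 0.00385) lay above both vehicle arrays. Of its 3 other probe sets at 24 h, 1 also rose (1.28, adjusted p = 0.00384), and 1.02 and -0.65 were not called.

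Rab37, described in mast cell granules, stood at 107 and 170.1 in vehicle C10, 96.9 and 64.7 at 3 h and 237 and 294 at 48 h (log2 change 0.97, SE 0.29, adjusted p = 0.02). Its 24 h and 48 h arrays exceeded the vehicle arrays. A dimmer Rab37 probe set gave -0.147 at 48 h (adjusted p = 0.721), 0.957 at 24 h (0.0356) and -1.575 at 3 h (0.00516). Rab8a and Rab8b, which carry Golgi-derived vesicles to the surface, were higher at 48 h by 1.4-fold (log2 change 0.48, SE 0.12, adjusted p = 0.0105) and 1.51-fold (log2 change 0.59, SE 0.071, adjusted p = 0.000162). Rab8b was first lower at 3 h (-0.27), a change that was 0.57 under spike-in scaling. Rab10, of the same subfamily, stood at 2752 and 2859.7 in vehicle C10, 1595 and 1414 at 3 h and 2223 and 2009.9 at 48 h. By its brightest probe set Rab10 was lower at all 4 times, from -0.90 at 3 h to -0.41 at 48 h (adjusted p = 0.0173). Under spike-in scaling its changes at 12 h and 48 h were 0.0614 and 0.167.

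Rabs of the endoplasmic reticulum and Golgi move new proteins along the early secretory route. Of 12 tested, 4, 5, 6 and 6 were higher over the 4 times and 3, 2, 1 and 2 lower. At 48 h these were 50% and 16.7%, against 24.2% and 38.2% of all genes. Rab1b, of transport from the endoplasmic reticulum to the Golgi, had signals of 1252 and 1232 in vehicle C10, 2040.3 and 1802 after 3 h of estradiol, 2593 and 2566 after 12 h, 2922 and 2604 after 24 h, 2368 and 2339 after 48 h, and 1392 and 1398 in HAFTL. Every estradiol C10 array exceeded the vehicle arrays, by 2.22-fold at 24 h (log2 change 1.15, SE 0.085, adjusted p = 1.54e-05) and 1.9-fold at 48 h (log2 change 0.92, SE 0.085, adjusted p = 3.87e-05). Rab1a, its close relative, rose by 1.61-fold at 24 h (log2 change 0.69, SE 0.068, adjusted p = 7.45e-05). Rab6a, of traffic within and from the Golgi, stood at 2752 and 2776 in vehicle C10 and 5455 and 4806 at 48 h (log2 change 0.89, SE 0.083, adjusted p = 4.03e-05).

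Rab33b, which binds the autophagy protein ATG16L1 and acts at the Golgi, was the Rab gene called higher at least 2-fold at 3 h. Its signals were 435 and 524 in vehicle C10, 1079 and 1197 after 3 h of estradiol, 853 and 915 after 12 h, 987 and 892 after 24 h, 1069.8 and 1266 after 48 h, and 717 and 656 in HAFTL. All 8 estradiol arrays lay above both vehicle and both HAFTL arrays, with 2.38-fold at 3 h (log2 change 1.25, SE 0.13, adjusted p = 0.000151) and 2.44-fold at 48 h (log2 change 1.29, SE 0.13, adjusted p = 6.07e-05). Rab36, of late endosome positioning and the Golgi, had signals of 155 and 142 in vehicle C10, 162 and 189.7 after 3 h of estradiol, 157 and 181 after 12 h, 399.8 and 377 after 24 h, 309 and 257 after 48 h, and 115 and 116 in HAFTL. The 24 h and 48 h arrays exceeded all others, and the change at 24 h was 2.62-fold (log2 change 1.39, SE 0.12, adjusted p = 4.37e-05). A dimmer Rab36 probe set gave 0.23 at 24 h (adjusted p = 0.46).

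Rab43, of Golgi traffic and, in mouse dendritic cells, cross-presentation, fell at 3 h alone among the 4 times. Its signals were 1207 and 1191 in vehicle C10, 406 and 329.5 after 3 h of estradiol, 1099 and 1246 after 12 h, 1372 and 1153 after 24 h, 1349 and 1422 after 48 h, and 1372 and 1384 in HAFTL. The 3 h arrays were far under every other array, those at 12 h and 24 h spanned the vehicle range, and those at 48 h lay above it with no call. The fall at 3 h was 3.28-fold (log2 change -1.71, SE 0.13, adjusted p = 2.78e-05), and from 3 h to 12 h it rose again (log2 change 1.68, SE 0.13, adjusted p = 9.52e-05). Spike-in scaling left -1.11 at 3 h without a call (adjusted p = 0.0821), and of its dimmer probe sets 1 also fell at 3 h (-0.77) and 1 gave 0.233 with no call. By their brightest probe sets Rab2a was slightly higher and Rab2b, its close relative, lower at all 4 times. Their log2 changes at 48 h were 0.27 (adjusted p = 0.00735) and -0.64 (adjusted p = 0.00275).

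Rab33a, a relative of Rab33b known from neurons and lymphocytes, was near the filter level, with signals of 96.2 and 61.5 in vehicle C10, 37 and 16 after 3 h of estradiol, 17.2 and 22.2 after 12 h, 67.7 and 54.3 after 24 h, 34.7 and 21.1 after 48 h, and 139.6 and 118 in HAFTL. One vehicle array and all estradiol arrays were under that level, so its falls at 3 h, 12 h and 48 h (adjusted p = 0.0138, 0.00577 and 0.0155) amount to at least 1.03-fold and are uncertain in size. The calls were lost at 3 h without the first vehicle array (adjusted p = 0.0838) or the second 3 h array (0.0685), and at 48 h without the first vehicle array (0.094) or the second 48 h array (0.0949).

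Rab44, on no compartment list, showed the largest change of the 50. It is an unusually large Rab, described in mouse mast cells and osteoclasts. Its signals were 69.5 and 16 in vehicle C10, 16 and 16 after 3 h of estradiol, 158 and 217 after 12 h, 2310.2 and 2454 after 24 h, 2825 and 3817 after 48 h, and 16 and 16 in HAFTL. Both vehicle arrays were under the filter level and both 3 h arrays at the floor, the 12 h arrays were above it, and those at 24 h and 48 h lay higher still. Against the filter level it was at least 2.48-fold higher at 12 h, at least 31.9-fold at 24 h and at least 44.0-fold at 48 h. The test of the floored signals against vehicle C10 (adjusted p = 0.00811, 5.28e-05 and 2.68e-05) does not test these bounds. The step from 12 h to 24 h, measured above the level on both sides, was 12.9-fold (log2 change 3.69, SE 0.57, adjusted p = 0.00131). It has 1 probe set, so no other probe set bears on it.

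The other unlisted Rabs were called lower or not called, apart from Rab23 at 3 h. Of the 6 tested, 1 was higher at each time and 2, 1, 2 and 3 were lower, those at 3, 12 and 48 h counting Rab42. At 48 h these were 16.7% and 50%, against 24.2% and 38.2% of all genes. Rab28, linked to cilia and to phagocytosis in the retina, stood at 3325 and 3207 in vehicle C10, 2352 and 2043 at 24 h and 2010.2 and 1667 at 48 h, a fall of 1.78-fold at 48 h (log2 change -0.83, SE 0.11, adjusted p = 0.000244). Rab39b, known mostly from neurons, had signals of 121 and 188 in vehicle C10, 50.9 and 91.5 after 3 h of estradiol, 149.7 and 156 after 12 h, 88 and 106 after 24 h, 76.6 and 75 after 48 h, and 70.2 and 95.8 in HAFTL. It was lower at 3 h (log2 change -1.14, SE 0.31, adjusted p = 0.0175), where 1 of the 2 arrays was under the filter level, and at 48 h (log2 change -0.99, SE 0.31, adjusted p = 0.0238). The 3 h call was lost without the second vehicle array (adjusted p = 0.106) or the first 3 h array (0.0928). Rab23, of hedgehog signalling, was higher at 3 h (log2 change 0.88, SE 0.28, adjusted p = 0.0322). Rab42, a little studied Rab, was under the filter level in both groups at the times it was called against vehicle C10, so it has no fold.

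**Figure D2:**
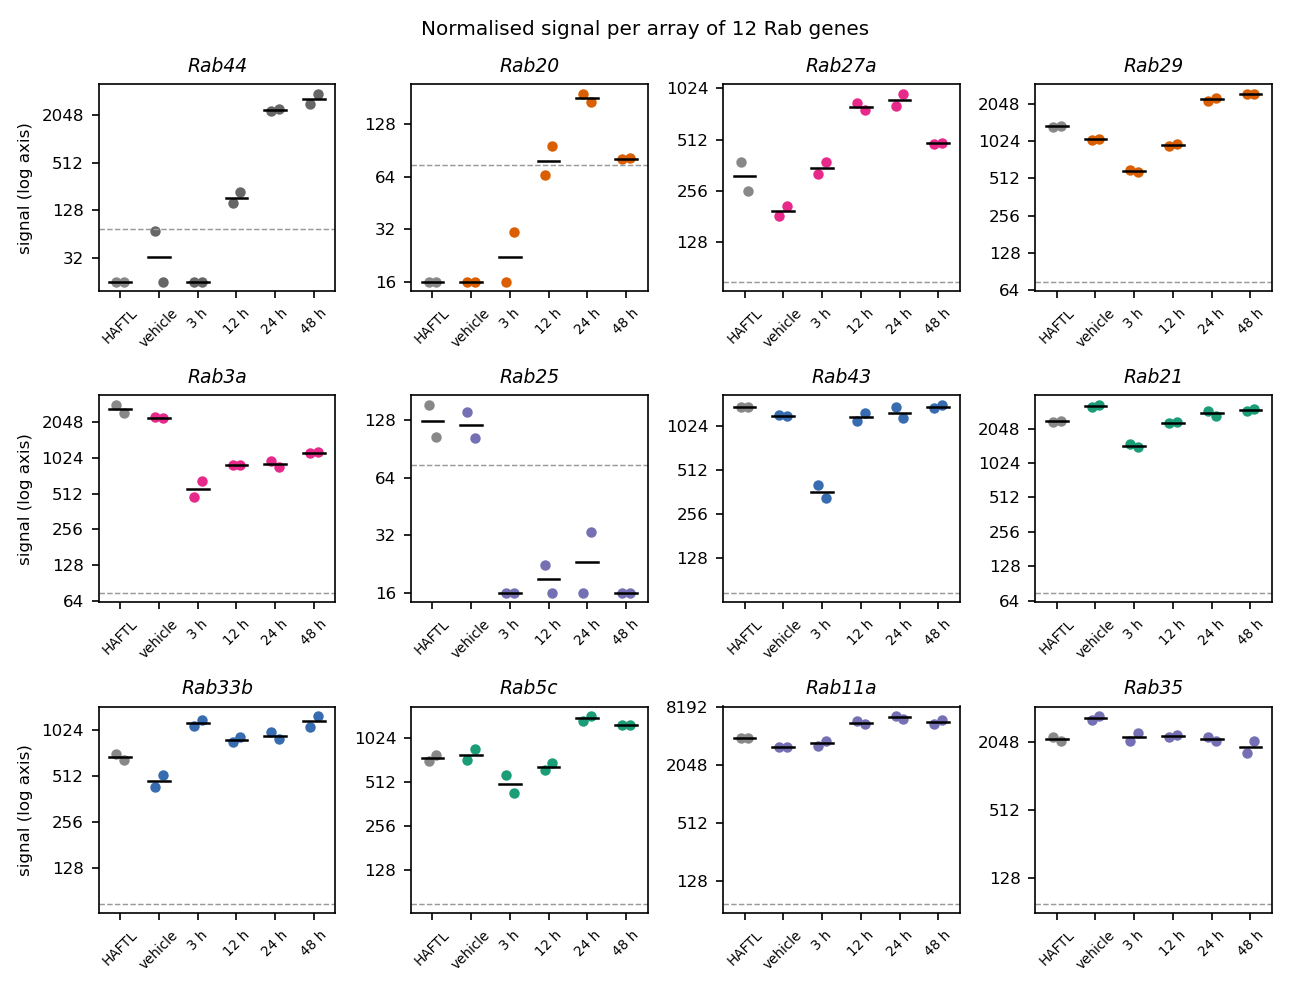
Normalised signal on a log axis for 12 Rab genes, chosen after their values were seen, with 1 point per array, a bar for the mean of the log2 values, and a dashed line at the filter level of 74.6. Rab44 climbs from the floor of 16 to 2825 and 3817 at 48 h, Rab29 dips to 577 and 596 at 3 h before passing its vehicle arrays at 24 h, and Rab3a and Rab25 stay under their vehicle arrays.

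Set side by side, the compartment lists differed in their medians. At 48 h the list median of the log2 change was 0.39 for early endosome, 0.40 for recycling endosome, 0.84 for late endosome and lysosome, 0.48 for secretory, 0.58 for endoplasmic reticulum and Golgi, and -0.49 for unlisted Rabs, beside -0.19 for all genes tested. Spike-in scaling made the last of these 0.104. At 3 h the medians were -0.21, 0.14, 0.18, -0.32, -0.0269 and -0.29 in the same order, beside -0.0638 for all genes, and all 6 were above 0 under spike-in scaling (0.27 to 0.92). At 24 h they were 0.31, 0.22, 0.67, 0.49, 0.48 and -0.0866. The difference between lists was not tested, and the lists hold between 6 and 12 tested genes each.

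**Figure D3:**
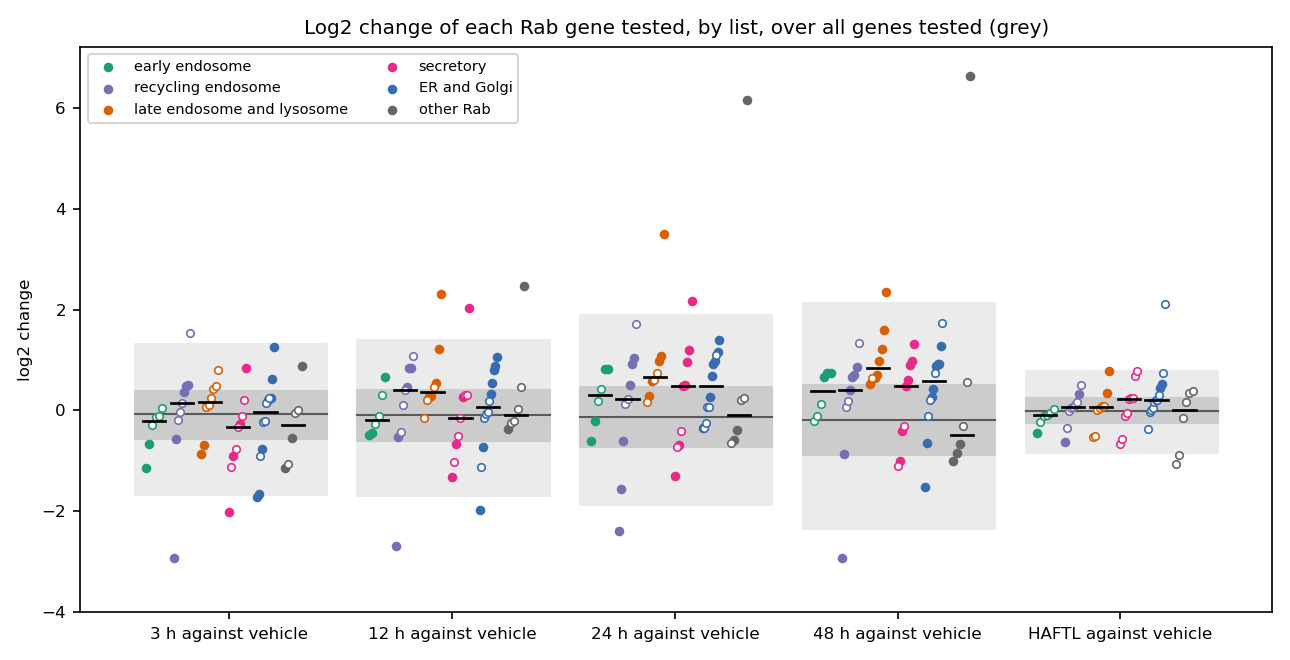
Log2 change of each tested Rab gene by list (colours) in 5 comparisons with vehicle C10, filled where adjusted p was below 0.05, with a bar for the median of the list. Grey bands hold the middle 50% and 90% of all genes tested and the grey line their median. At 48 h the fitted changes of the 8 late endosome and lysosome Rabs lie between 0.53 and 2.34. The highest is that of Rab20, which was at the floor of 16 in both vehicle arrays.

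Successive times show when the changes were made. From 3 h to 12 h 17 of 50 Rab genes rose and 1 fell (16.6% and 16.6% of all genes), the 1 being Rab5a (log2 change -0.34, SE 0.08, adjusted p = 0.0141). From 12 h to 24 h 15 rose and 1 fell (22.3% and 23.1% of all genes), the fall being that of Rab28 (log2 change -0.33, SE 0.11, adjusted p = 0.0391). That call was lost when any 1 of 9 of the 12 arrays was left out, the exceptions being the first 24 h array, without which 2 fell, and the 48 h arrays. The 15 became 9 without the first 12 h array and 7 without the first 24 h array. From 24 h to 48 h 4 rose (Rab17, Rab5a, Rab7b and Rab9) and 5 fell (Rab1a, Rab20, Rab27a, Rab36 and Rab42), against 9.47% and 17.9% of all genes. These became 2 higher without the second 24 h array or the first 48 h array, and 1 to 3 lower without any 1 of the 24 h or 48 h arrays. Between 3 h and 48 h 24 rose and 1, Rab28, fell, against 28.7% and 34.6% of all genes, and 2 or 3 fell without any 1 of the 12 h or 24 h arrays or the second 48 h array. The largest such rises on the log2 scale with both groups above the filter level were those of Rab29 (log2 change 2.08, SE 0.063, adjusted p = 1.07e-07), Rab43 (log2 change 1.92, SE 0.13, adjusted p = 5.17e-06) and Rab7b (log2 change 1.37, SE 0.11, adjusted p = 1.34e-05).

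Fewer genes were called between HAFTL and vehicle C10. Of 50 Rab genes 5 were higher and 2 lower, against 7.11% and 8.12% of all genes, with a median log2 change of 0.064 beside -0.00261. The higher genes were Rab7b (log2 change 0.77, SE 0.11, adjusted p = 0.00416), Rab33b (0.52), Rab6a (0.45), Rab29 (0.35) and Rab11a (0.33). The lower ones were Rab35 (log2 change -0.62, SE 0.14, adjusted p = 0.0228) and Rab21 (log2 change -0.44, SE 0.077, adjusted p = 0.00943). The 5 higher calls became 2 or 3 when either HAFTL array, either vehicle array or either 12 h array was left out, and the 2 lower calls became 0 without the first HAFTL array and 1 without the second or without either vehicle array. Higher calls made up 71.4% of these Rab calls and 46.7% of all calls, but 25% and 23.3% when arrays were centred on their median and 100% and 49.2% under spike-in scaling, the first of these on 1 call. That call was of Rab19 (log2 change 2.14, adjusted p = 0.0186), so none of the Rab genes named above for HAFTL was called under spike-in scaling.

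The genes that act on or with Rabs moved in both directions. Of 116 such genes measured 106 were tested, of which 15, 21, 34 and 38 were higher over the 4 times and 39, 39, 27 and 32 lower. At 48 h these were 35.8% and 30.2% of them, against 24.2% and 38.2% of all genes, and at 3 h 14.2% and 36.8%, against 20.9% and 27.3%. Their median log2 change at 48 h was 0.0977, beside -0.19 for all genes. Under spike-in scaling 23 were higher and 3 lower at 48 h. Among 7 prenylation factors and chaperones 1 was higher and 2 lower at 48 h. Gdi2, the GDP dissociation inhibitor that extracts Rabs from membranes, went from 20738 and 21141 in vehicle C10 to 14413 and 13283 at 48 h (log2 change -0.60, SE 0.073, adjusted p = 0.000187), a change of 0.185 under spike-in scaling. Rabggtb, the catalytic subunit of Rab geranylgeranyl transferase, went from 3658 and 3405 to 2039 and 1793 (log2 change -0.88, SE 0.099, adjusted p = 0.000119). Rabif, which stabilises Rabs without nucleotide, was higher (0.47).

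Of 30 exchange factors 11 were higher and 9 lower at 48 h (36.7% and 30%, against 24.2% and 38.2% of all genes). Rin2, an exchange factor of Rab5, had signals of 40.6 and 67.8 in vehicle C10, 264 and 266 after 3 h of estradiol, 488 and 455 after 12 h, 1361 and 1299 after 24 h, 1946 and 2091 after 48 h, and 54.6 and 43.4 in HAFTL. Both vehicle arrays were under the filter level and every estradiol C10 array was above it, in groups that did not overlap. Rin2 was thus at least 3.55-fold higher at 3 h and at least 27.0-fold at 48 h. The test of the floored signals at 48 h gave adjusted p = 5.65e-07. Dennd1c, of the family that activates Rab35, had signals of 519.5 and 520.2 in vehicle C10, 135 and 161 after 3 h of estradiol, 404 and 337 after 12 h, 1320.0 and 1719 after 24 h, 1756 and 2154 after 48 h, and 658 and 583 in HAFTL. It was lower at 3 h (log2 change -1.82, SE 0.17, adjusted p = 0.0001) and higher at 48 h (log2 change 1.90, SE 0.17, adjusted p = 3.46e-05). Dennd5a was higher at 48 h (1.06), while Dennd5b (-2.30), Dennd2d (-1.29) and Dennd6a (-0.98) were lower, all of the DENN family of exchange factors.

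Of 27 GTPase activating proteins 9 were higher and 11 lower at 48 h (33.3% and 40.7%, against 24.2% and 38.2% of all genes). Evi5, which acts on Rab11, stood at 903 and 672 in vehicle C10, 4222 and 4093 at 3 h and 5085 and 4303 at 48 h (log2 change 2.59, SE 0.14, adjusted p = 2.01e-06). Tbc1d10c, known from lymphocytes, went the other way, from 7584 and 7444 in vehicle C10 to 518 and 459 at 3 h and 1422 and 1454 at 48 h (log2 change -2.39, SE 0.11, adjusted p = 7.68e-07). For each of these genes all estradiol arrays were on 1 side of the vehicle arrays. Tbc1d1 (1.74) and Tbc1d9 (1.53) were also higher, and Tbc1d4 (-1.80), which acts on Rab10, and Tbc1d15 (-1.41), which acts on Rab7, were lower.

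Of 32 effectors 13 were higher and 8 lower at 48 h (40.6% and 25%, against 24.2% and 38.2% of all genes). Eea1, the Rab5 effector that tethers early endosomes, stood at 659 and 644 in vehicle C10 and 2248 and 1884 at 48 h (log2 change 1.66, SE 0.13, adjusted p = 1.22e-05). Appl1, a Rab5 effector of an earlier endosome, went from 2635 and 2856 to 1103 and 1220.5 (log2 change -1.24, SE 0.11, adjusted p = 2.8e-05). Rilpl1, of the family of RILP, was higher (2.38), as was the Rab11 effector Rab11fip5 (1.33), 1 of whose vehicle arrays was under the filter level. Another Rab11 effector, Rab11fip2 (-1.40), with 1 of its 48 h arrays under the level, and the exocyst subunit Exoc6 (-0.72) were lower. A list of 10 genes held 8 subunits of the CORVET and HOPS tethers, which bind Rab5 and Rab7, with 4 higher and 1 lower, and Vps33b and Vipas39 of a related complex, 1 of them lower. Vps11 (log2 change 1.11, SE 0.17, adjusted p = 0.00062) and Vps18 (log2 change 1.10, SE 0.19, adjusted p = 0.00131), core subunits of both tethers, and Vps33a (0.60) were higher. Vps33b (-0.96) and the tether subunit Vps16 (-0.36; 0.187 under spike-in scaling) were lower.

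**Figure D4:**
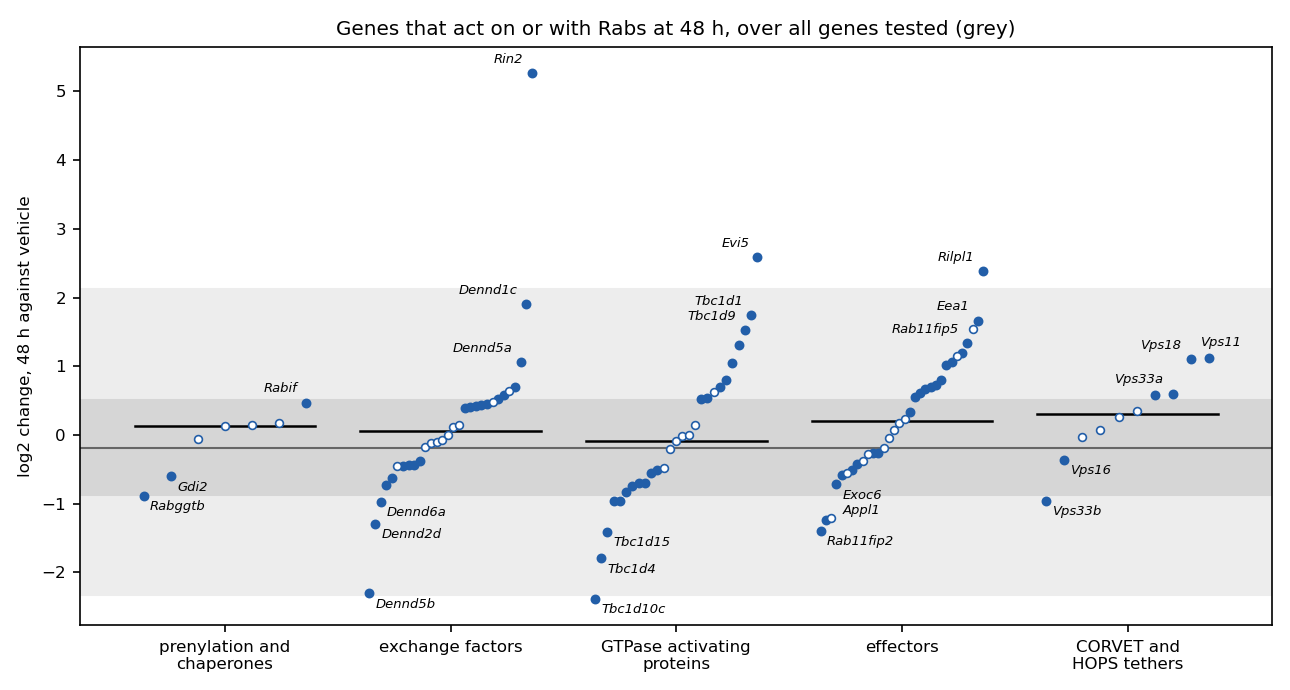
Log2 change at 48 h against vehicle C10 of 106 genes that act on or with Rabs, by list, ordered by size within each list, filled where adjusted p was below 0.05, with a bar for the median. Grey bands hold the middle 50% and 90% of all genes tested; by fitted change Rin2 stands highest and Tbc1d10c and Dennd5b lowest.

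Other probe sets of the same Rab genes gave a second reading. Several tested probe sets existed for 28 of the 50 Rab genes, and at 48 h 45 of 52 other probe sets had the sign of the brightest. The dimmer Rab3a probe set also fell, giving -2.80 at 3 h and -2.11 at 48 h beside -2.002 and -0.99. Probe sets were called in opposite directions for Rab11b and Rab22a at 3 h and 12 h and for Rab14 at 48 h. For Rab11b the brightest gave 0.50 and another -0.73 at 3 h, so its higher call at 3 h rests on the choice of probe set. For Rab14 at 48 h the brightest gave 0.40 and another -0.25, while 3 more of its 7 probe sets were called higher (0.70, 0.92 and 1.08).

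**Figure D5:**
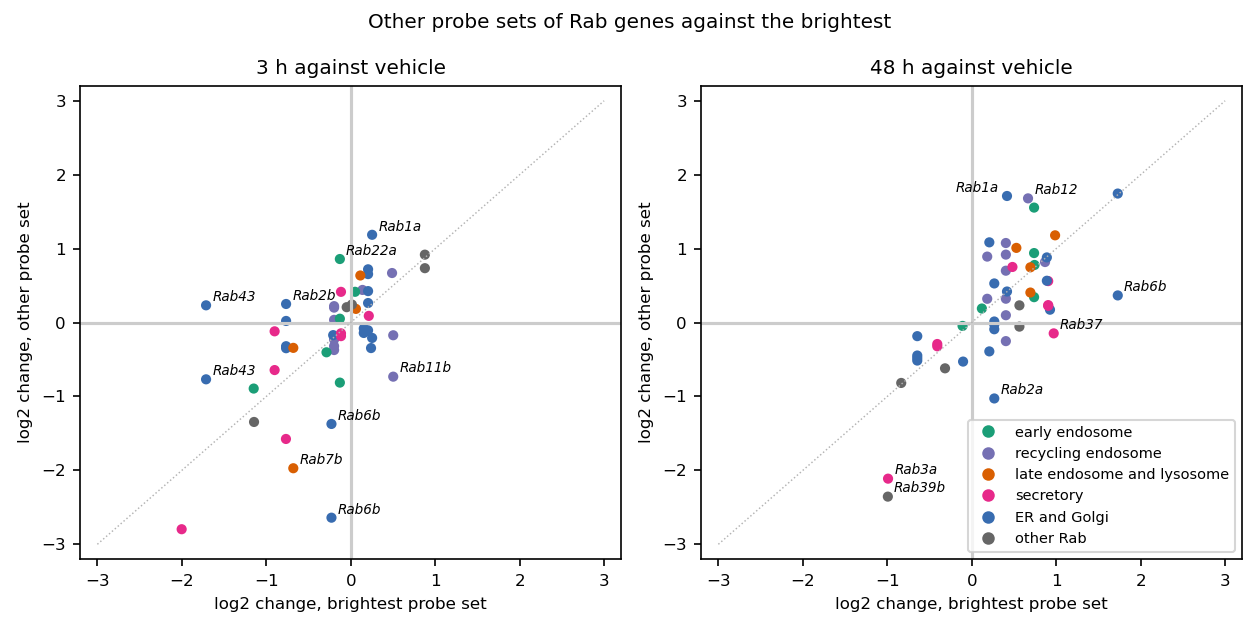
Log2 change of each other tested probe set of a Rab gene (vertical) against that of the brightest (horizontal), at 3 h and 48 h against vehicle C10, coloured by list, with names where they differ by more than 0.9. At 48 h 45 of 52 points have the same sign on both axes.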

How the data were processed

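RNA extracted with Trizol was biotin-labelled for Affymetrix mouse arrays, per the labels. The deposited intensities are linear; the authors had scaled them, since the 2% trimmed means of the 12 arrays are the same, by a method not given in the sources used here. Array medians ranged from 68.5 to 85.0. Log2 intensities of 45101 probe sets were quantile normalised, 64 control probe sets left out, and signals under 16 set to 16, which understates folds of dim genes. Genes were named from the platform annotation, each by its brightest probe set, and tested where the log2 signal exceeded 6.22 in at least 2 arrays.

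limma (3.58.1, R 4.3.3) fitted 6 group means to 12 arrays (6 residual and 1.53 prior degrees of freedom), two-sided, with Benjamini-Hochberg adjustment over 11696 genes. The step was tested on simulated data. SE is the fit's standard error. Where both arrays of a group were under the filter level, the change is the other group's mean against that level. The adjusted p given with such a bound is from the fit of the floored signals and does not test the bound. The number of arrays limits the precision.

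Rab genes with an adjusted p below 0.05 and a fitted change of at least 2-fold against vehicle C10 at any time were given array by array, and of each regulator list the 3 largest called rises and falls at 48 h with arrays that did not overlap vehicle C10. Rab5c, Rab31, Rab35, Rab7b and the other Rabs given by array were added after their values were seen. Members, lists, motifs and alternatives were chosen with earlier results of these data known. Each Rab is on 1 list, although several act in more than 1 place. Alternatives were other scalings (no quantile normalisation, median centring, 24 poly-A spike-in probe sets), filters, floors, a pseudocount, other probe sets, HAFTL as control, a replicate block, and leaving out each array.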

Additional observations from a re-analysis of the deposited data

Results flagged for a closer look

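Rab genes called in opposite directions at different times against the same vehicle arrays were followed up with the difference between those times. The vehicle mean does not enter that difference, but the vehicle arrays share in the spread of the fit. Because the genes were picked for these opposite calls, the direction of the difference was set by the choice. Its p-value therefore adds no support. Rab29 changed by -0.85 at 3 h and 1.22 at 48 h, a difference of 2.08 (SE 0.063, adjusted p = 1.07e-07). Rab5c changed by -0.67 at 3 h and 0.66 at 48 h, a difference of 1.34 (SE 0.15, adjusted p = 0.000108). Rab7b changed by -0.68 at 3 h, 0.54 at 12 h and 0.69 at 48 h, with differences from 3 h of 1.22 at 12 h (adjusted p = 0.000206) and 1.37 at 48 h (adjusted p = 1.34e-05). Rab8b changed by -0.27 at 3 h, 0.27 at 12 h and 0.59 at 48 h, with differences of 0.54 at 12 h (adjusted p = 0.00109) and 0.86 at 48 h (adjusted p = 1.76e-05). In each case both arrays of the later time lay above both 3 h arrays, which the choice of genes made likely. None of the 4 lower calls at 3 h remained under spike-in scaling, so the opposite calls against vehicle C10 depend on scaling for all 4. The changes at 3 h there were -0.23 for Rab29, -0.0713 for Rab5c and -0.0832 for Rab7b, which kept their sign. That of Rab8b was 0.57 and had turned.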

How the results depend on the processing

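With 2 arrays a group, and spike-in signals that spread by over 1 log2 unit between the 48 h duplicates (8.18 and 7.14), precision is limited, above all under spike-in scaling, whose cause of lost calls was not tested. Dim genes near the filter level are uncertain in size. The duplicates correlated at 0.976 to 0.980. In the quantile normalised signals no pairing by replicate number was seen: same-numbered deviations correlated between -0.0337 and 0.0415 over 15 pairs of groups. That scaling takes out shifts of a whole array, so pairing in the spike-in signals was not tested. The replicate block changed the lower calls of 24 h against 12 h from 1 to 2. It changed none of the Rab calls against vehicle C10 with a fitted change of at least 2-fold.

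Spike-in scaling gave 5 higher and 2 lower Rab calls at 3 h, 2 lower at 12 h, 11 higher and 1 lower at 24 h, and 1 lower at 48 h. It gave 1 higher and 0 lower in HAFTL, 3 and 0 for 12 h against 3 h, 1 higher for 24 h against 12 h, 1 and 0 for 48 h against 24 h, 9 and 0 for 48 h against 3 h, 21 by the F test, and 23 higher and 3 lower regulators. Median centring gave 1 higher in HAFTL, 2 lower for 12 h against 3 h and 5 lower for 48 h against 3 h. Averaging the probe sets of each gene gave 3 higher in HAFTL, 3 lower for 48 h against 24 h and 3 lower for 48 h against 3 h. A filter at the 70th percentile gave 2 lower for 12 h against 3 h and 3 lower for 48 h against 24 h, and no filter 0 lower for 24 h against 12 h. Each probe set on its own, a larger number of tests, gave 4 lower in HAFTL, 2 for 12 h against 3 h, 8 for 48 h against 24 h and 4 for 48 h against 3 h.

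Leaving out each array in turn gave 3 to 12 higher and 12 to 14 lower at 3 h, 13 to 18 and 8 to 10 at 12 h, 19 to 23 and 6 to 9 at 24 h, and 23 to 27 and 6 to 10 at 48 h. The ranges were 2 to 5 and 0 to 2 in HAFTL, 14 to 17 and 0 to 2 for 12 h against 3 h, 7 to 15 and 0 to 2 for 24 h against 12 h, 2 to 4 and 1 to 6 for 48 h against 24 h, 22 to 25 and 1 to 3 for 48 h against 3 h, 34 to 39 by the F test, and 34 to 40 and 24 to 33 regulators. The 34 Rab calls against vehicle C10 with a fitted change of at least 2-fold were also followed, so smaller changes named above are outside this tally. None of the 34 changed side or direction without quantile normalisation, with median centring, without a filter, with a floor of 1, with a pseudocount of 16 or with the replicate block. Spike-in scaling took 8 of the 34 over the threshold, HAFTL as the control 1, and the mean of probe sets 1 of 33. Another probe set turned 2 of 12, Rab3d at 24 h (-0.65) and Rab43 at 3 h (0.233), neither called, and took 2 more over the threshold.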
